A study of Mus musculus with 2 samples.

Results

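Genes that build fenestrae and caveolae, and the EHD proteins that shape and recycle membrane, were described in endothelial cells of the embryonic mouse kidney. The members were 10 genes chosen by name, Plvap, Cav1, Cav2, Ehd1, Ehd2, Ehd3, Ehd4, Nostrin, Pacsin2 and Dnm2, and their values were taken from all probe sets that the platform annotation gives to exactly 1 of these genes. Of the 10 genes, 9 had such a probe set, 24 probe sets in all among the 45101 of the array, and Pacsin2 was not analysed here for want of one. The study sorted GFP positive cells from kidneys of CD-1 embryos at E15.5 (Theiler stage 23, sex unknown) that carry GFP under the Tie2 promoter, and each of the 2 samples was a pool of about 5 to 10 kidneys hybridised to 1 array. The Tie2 promoter is known to be active in some blood cells as well as in endothelium. The pools are numbered 1 and 2 in the labels, which give no treatment, no other group and nothing on whether the embryos were of separate litters, so the spread between pools may be technical. The titles read FLK1 although the reporter is Tie2, and the source field names renal vein and artery endothelium although whole kidneys were dissociated. With 1 group of 2 arrays there is no contrast and no p-value, and the number of arrays limits the precision of every value.

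Fenestrae are round pores through thin endothelium that let water and solutes pass, and many are spanned by a diaphragm made of the Plvap protein. Caveolae are flask-shaped pits of the plasma membrane, coated by caveolins and cavins, and they carry signalling proteins such as endothelial nitric oxide synthase. EHD proteins are membrane-binding ATPases that hold the neck of caveolae or drive endosomes back to the surface, F-BAR proteins such as Nostrin and Pacsin2 curve the membrane, and the GTPase dynamin 2, encoded by Dnm2, cuts vesicles free. In the kidney, the glomerular endothelium is known for its open fenestrae, and the peritubular capillaries for fenestrae with diaphragms.

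All 9 measured genes were above background on both arrays, against 61.2% of all 18193 genes, and so were 21 of their 24 probe sets, against 49.6% of all probe sets. The members were chosen with earlier results of these data known, so these counts describe them and test nothing. Above background means brighter than the 95th percentile of probe sets for odour, pheromone and taste receptor genes, which was 198.9 on replicate 1 and 203.9 on replicate 2, in the arbitrary units of the scanner. A gene with several probe sets was represented by the one with the highest mean log2 intensity. The brightness of different probe sets depends on their sequence, so intensities are compared below between arrays and with the limit, and never between genes. Of the 3 probe sets not above background on both arrays, 2 belonged to Ehd2 and 1 to Dnm2. The members closest above the limit were an Ehd1 probe set (1416012_at, 214.7 and 280) and the second Cav2 probe set (1425955_at, 483 and 227), and the closest below it was an Ehd2 probe set (1424158_at) that passed in replicate 1 only, at 207.5 and 160.7.

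**Figure D1:**
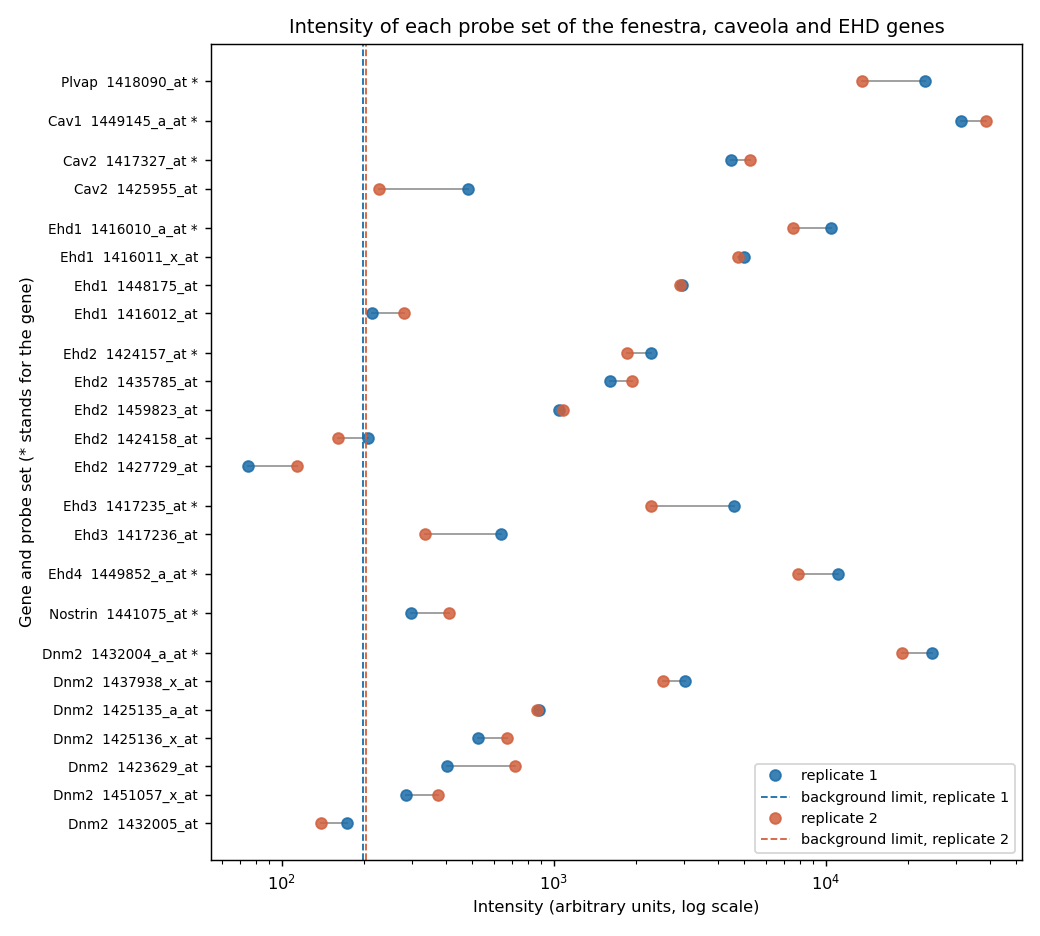
Intensity (x axis, arbitrary units on a log scale) of each of the 24 probe sets of the 9 measured genes (y axis) in replicate 1 and replicate 2, joined by a grey line, with the background limit of each array dashed and the probe set that stands for each gene starred. All 9 starred probe sets lie to the right of both limits, Nostrin the closest to them at 299.5 and 411, and the unstarred sets of Ehd2 and Dnm2 reach below.

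Plvap, the gene of the fenestral and caveolar diaphragm, gave 23145 in replicate 1 and 13603 in replicate 2, which is 116 and 66.7 times the limit. Its mean log2 intensity was 14.12 ± 0.54 (SD, n = 2). It was brighter in replicate 1, by 0.78 on the log2 scale after the medians of the arrays were made equal (1.72-fold), and 10.7% of all probe sets above background differed between the arrays by at least that much. A single probe set measured it, as was also the case for Cav1, Ehd4 and Nostrin.

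The caveolins were far above the limit and differed little between the pools. Cav1, the caveolin that endothelial caveolae require, gave 31392 and 38646, or 158 and 190 times the limit, with a mean log2 intensity of 15.09 ± 0.21 (SD, n = 2). The log2 difference was -0.29 (replicate 1 minus replicate 2, here and below), and 52.7% of probe sets above background differed by at least as much. Cav2, the partner that assembles with Cav1, gave 4487 and 5248, with a log2 difference of -0.21. Both caveolins were thus slightly higher in replicate 2, by less than the SD of 0.505 that the difference had over all probe sets above background. The second Cav2 probe set went the other way, with a log2 difference of 1.10, and on replicate 2 it was only 1.11 times the limit.

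Cav1 and Cav2 are neighbours on mouse chromosome 6, with 0 annotated genes between them in the RefSeq table used here (GRCm38.p6). The 250 bases before the annotated start of each are shown because an ETS2 motif was among the sites that an enrichment analysis in the study found near genes high in embryonic endothelium, and these are the coat genes of the caveola. Those of Nostrin and Ehd3, named in the study as genes of adult glomerular endothelium, stand beside them. Capitals mark the letters TTCCTG, which stand in the name of that ETS2 motif, and the GC box GGGCGG, each on either strand (CAGGAA and CCGCCC), and no matches overlapped. The genes that the study names in its text as having that motif include none of the members. The sites in the study were conserved in evolution, which was not examined here. The windows are Cav1 at chr6:17306085-17306334, Cav2 at chr6:17280935-17281184, Nostrin at chr2:69135550-69135799 and Ehd3 at chr17:73804591-73804840, all on the plus strand, and the sequences are from RefSeq.
Cav1: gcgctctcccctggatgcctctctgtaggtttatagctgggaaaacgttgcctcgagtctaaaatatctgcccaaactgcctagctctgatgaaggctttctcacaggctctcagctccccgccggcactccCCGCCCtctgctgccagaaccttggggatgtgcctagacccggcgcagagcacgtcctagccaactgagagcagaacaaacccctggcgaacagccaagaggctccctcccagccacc
Cav2: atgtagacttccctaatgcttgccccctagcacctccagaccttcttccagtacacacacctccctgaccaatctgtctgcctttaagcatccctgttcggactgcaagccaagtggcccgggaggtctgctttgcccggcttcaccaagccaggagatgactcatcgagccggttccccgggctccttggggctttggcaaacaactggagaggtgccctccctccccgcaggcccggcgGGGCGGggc
Nostrin: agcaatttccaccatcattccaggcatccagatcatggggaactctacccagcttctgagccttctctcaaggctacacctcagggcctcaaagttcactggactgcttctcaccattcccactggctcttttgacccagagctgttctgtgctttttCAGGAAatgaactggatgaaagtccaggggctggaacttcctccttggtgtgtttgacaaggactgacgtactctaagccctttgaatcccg
Ehd3: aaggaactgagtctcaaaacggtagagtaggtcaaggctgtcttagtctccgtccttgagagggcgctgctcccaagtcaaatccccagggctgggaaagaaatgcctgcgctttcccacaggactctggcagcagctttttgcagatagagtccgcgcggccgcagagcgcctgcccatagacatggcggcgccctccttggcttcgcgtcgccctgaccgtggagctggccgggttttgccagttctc
Nostrin alone of the 7 members with a window at the gene start (Cav1, Cav2, Ehd2, Ehd3, Ehd4, Nostrin and Dnm2) held TTCCTG on either strand, once, as CAGGAA beginning 92 bases before the start. Of all 32851 promoter windows of this length, which include some at other starts than the annotated gene start, 25.7% held it. The GC box was in the windows of 5 of the 7 members, Cav1, Cav2, Ehd2, Ehd4 and Dnm2, and in 32.7% of all windows. The windows of those 5 had a GC content of 51.2% (Dnm2) to 62% (Cav2), beside a median of 52.4% over all windows. Ehd3, without the box, had 60%. A match of letters is not a site in use, and these windows are short.

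The EHD genes were all above background, and with the probe set that stands for each gene all 4 were brighter in replicate 1, as were 52.1% of all genes above background. Ehd3, which acts in transport from early endosomes and which the study names as a gene of adult glomerular endothelium, gave 4587 and 2272, or 23.1 and 11.1 times the limit. Its mean log2 intensity was 11.66 ± 0.72 (SD, n = 2), the widest spread among the 9 representative probe sets. The log2 difference was 1.03 (2.04-fold), and 4.45% of probe sets above background differed by at least as much. The second Ehd3 probe set gave 640.2 and 335, a log2 difference of 0.95, so the probe sets of this gene moved alike.

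Ehd3 was the only member whose representative probe set differed by over 2-fold (1 of 9), against 4.76% of all genes above background (2.09% for the direction of Ehd3, higher in replicate 1). It lay just past that fold, and the count was 0 of 9 after quantile normalization, with 100 added to both intensities, or with the median of each gene's probe sets. The nearest member inside the fold was Plvap at 1.72-fold.

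Ehd4, an EHD protein of early endosomes, gave 11102 and 7893, with a mean log2 intensity of 13.19 ± 0.35 (SD, n = 2) and a log2 difference of 0.51. Ehd1, which drives recycling of receptors from endosomes to the surface, gave 10414 and 7590, a log2 difference of 0.47. Its other 3 probe sets differed by less or in the other direction, at log2 differences of 0.09, 0.04 and -0.37. The faintest of them, 1416012_at, was at 1.08 and 1.37 times the limit.

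Ehd2, the EHD protein that sits at the neck of caveolae and steadies them, gave 2273 and 1856 with its brightest probe set, 11.4 and 9.1 times the limit. The log2 difference was 0.31. Its other probe sets above background gave 1606 and 1939 (1435785_at) and 1040 and 1081 (1459823_at), with log2 differences of -0.26 and -0.04. The 2 that were not above background gave 207.5 and 160.7, and 74.74 and 113.6. No direction between the pools was shared by the Ehd2 probe sets, and their differences among those above background were all under 1 SD. Among genes with several probe sets, 44.2% over the whole array had some above background and some not, as Ehd2 and Dnm2 did among the 5 members with several.

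**Figure D2:**
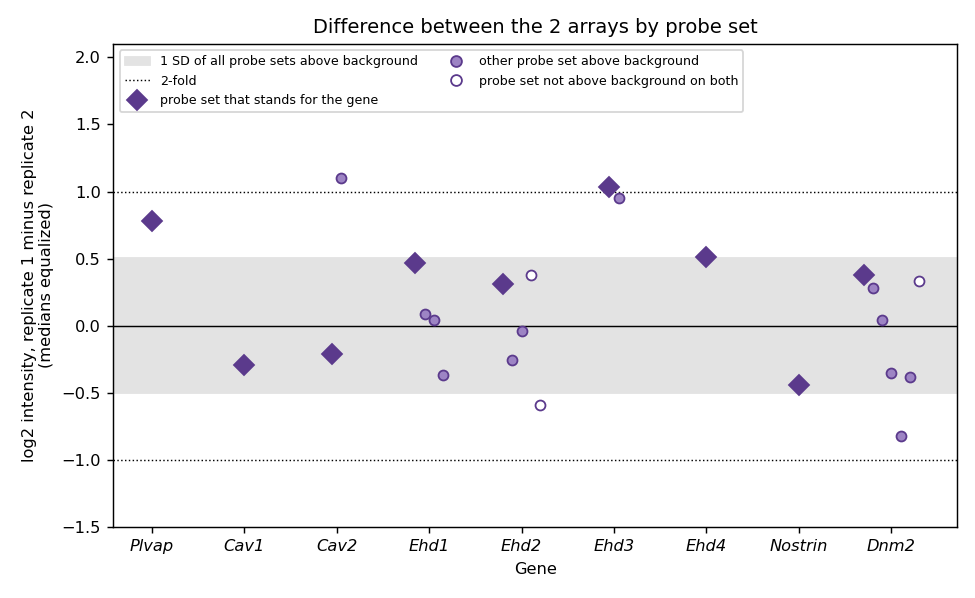
Log2 difference in intensity between the arrays (y axis, replicate 1 minus replicate 2 with medians made equal) for every probe set of each gene (x axis), with 1 SD of all probe sets above background shaded and 2-fold dotted. Both Ehd3 probe sets lie near 2-fold at 1.03 and 0.95, whereas the probe sets of Cav2, Ehd1, Ehd2 and Dnm2 lie on both sides of 0.

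Nostrin, an F-BAR protein that binds endothelial nitric oxide synthase and moves it from the plasma membrane to vesicles, lay closest to the limit among the representative probe sets. It gave 299.5 and 411, or 1.51 and 2.02 times the limit, with a mean log2 intensity of 8.45 ± 0.32 (SD, n = 2) and a log2 difference of -0.44. With the 99th percentile of the sensory receptor probe sets as the limit (307.3 and 231.5), or with double the limit (397.9 and 407.7), it was not above background on both arrays, and the other 8 members were. Its partner Nos3, the nitric oxide synthase itself, gave 4952 and 2456, a log2 difference of 1.03. The difference of Nostrin was under the SD of 0.505, and 33.7% of probe sets above background differed by at least as much.

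Dnm2 gave 24521 and 19008 with the probe set that stands for it (1432004_a_at), 123 and 93.2 times the limit, and a log2 difference of 0.38. The other 6 probe sets of this gene ranged from 156.1 to 2784 in mean intensity. Of the 6 above background on both arrays, 3 were higher in replicate 1 and 3 in replicate 2, and log2 differences ran from -0.82 (1423629_at, 405.7 and 722.4) to 0.38. The direction of Dnm2 between the pools therefore depended on the probe set, and with probe sets that carry no suffix it was -0.82. Suffixes on Affymetrix names mark probes shared by several transcripts of a gene or open to other genes. The only Dnm2 probe set not above background, 1432005_at, gave 173.3 and 138.9. The relatives of dynamin 2 were above background too with the probe set that stands for each, and 2 of the 3 were with the median of probe sets. Only 1 of 2 Dnm1, 2 of 5 Dnm3 and 2 of 4 Dnm1l probe sets were above background. Dnm1, the neuronal dynamin, gave 417.2 and 429.1, Dnm3 gave 1119 and 1111, and Dnm1l, which divides mitochondria, gave 11991 and 12047.

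Over the 9 members the median log2 difference was 0.38, with 6 higher in replicate 1 and 3 in replicate 2, beside a median of 0.02 over all 11127 genes above background. With the median of each gene's probe sets it was 0.06, and with probe sets without a suffix it was 0.04. Markers of the renal stroma moved between the pools by more. Of 11 renal stroma markers 10 were above background, all 10 were higher in replicate 2, and 9 of them by over 2-fold, with a median log2 difference of -1.89. Their summed intensity was 27610 in replicate 1 and 91596 in replicate 2, and Tcf21 passed the limit in replicate 2 only (186.4 and 352.2). Pdgfra, the PDGF receptor of stroma, gave 719.8 and 4811. Of the 7 mural cell markers 4 were above background and all 4 were higher in replicate 2, with a median log2 difference of -0.63 and sums over the list of 6640 and 11360. Tagln (98.76 and 334.4) and Myh11 (32.4 and 277.9) exceeded the limit of replicate 2 but not that of replicate 1, and neither array had Des above it (77.47 and 106.4). All 12 endothelial markers were above background, 10 of them higher in replicate 1 and 2, Tek and Pecam1, in replicate 2, with sums of 168483 and 149075 and a median of 0.20. Caveolin genes are also used by stromal and mural cells, and the part of any of these cells in the members' values was not tested. In pooled cells, fewer cells of a type and less RNA per cell cannot be told apart.

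**Figure D3:**
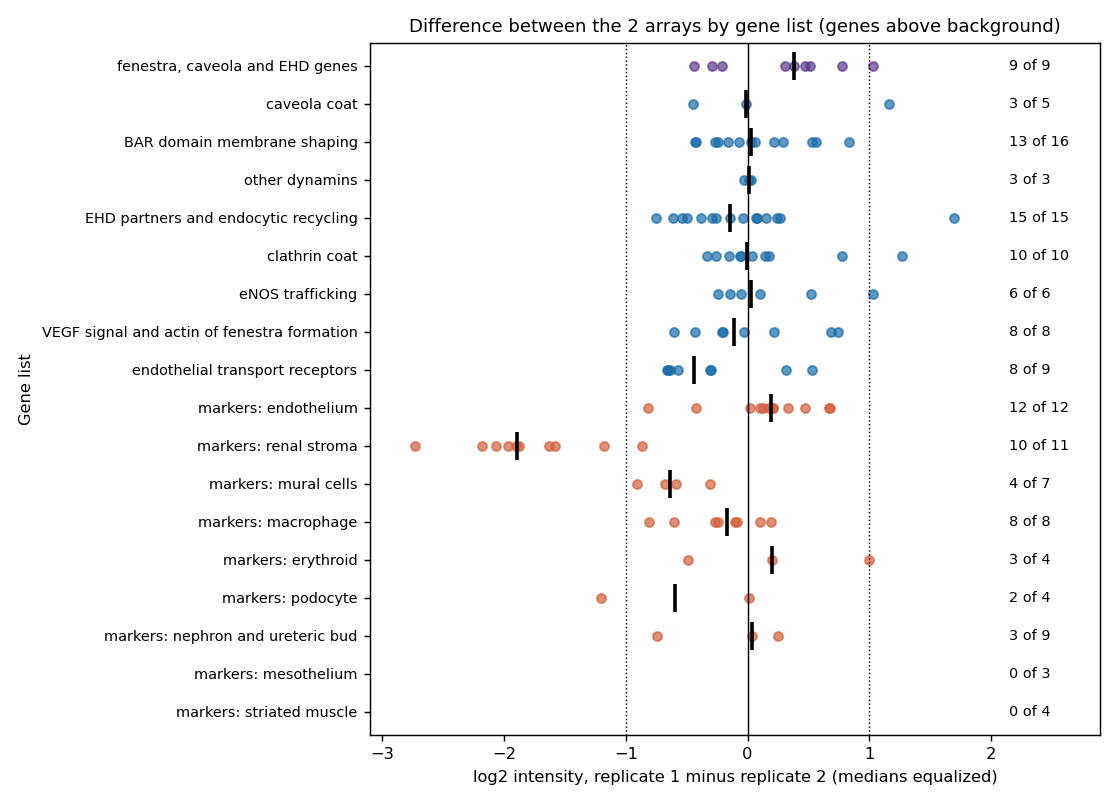
Log2 difference in intensity between the arrays (x axis, replicate 1 minus replicate 2, medians made equal) of each gene above background (dots) in the members (purple) and in 17 gene lists (y axis, pathway lists blue and cell type markers orange), with each list's median as a black mark, 2-fold dotted and the number above background of those measured at the right. The members' median is 0.38 and that of the renal stroma markers is -1.89.

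Genes of muscle caveolae were below the limit. Cav3, the caveolin of muscle, gave 30.59 and 20.25, and Cavin4, the muscle cavin, gave 60.11 and 49.25, both below the limit on both arrays. None of 4 striated muscle markers was above background on both arrays, although Myod1 (256.7 and 203.6) and Ckm (241.4 and 187.2) passed in replicate 1, with sums of 568.4 and 541.9 over the list. None of 3 mesothelial markers, Msln, Upk3b and Lrrn4, was above the limit (sums 134.7 and 149.3). Macrophage markers, which the sort could include, were all above background (8 of 8, sums 86645 and 103613), with a median log2 difference of -0.17. Of 4 podocyte markers 2 were above background, Synpo (1012 and 2346) and Podxl (29868 and 30060), which endothelium also makes (sums over the list 31113 and 32852). Wt1 passed in replicate 2 only (144 and 346.8), and Nphs1 was below the limit on both arrays (89.1 and 100.2). Of 9 nephron and ureteric bud markers 3 were above background (sums 1953 and 2347). These were Six2 (269.5 and 229.5), Cdh6 (480.4 and 812.5) and Krt8 (426.3 and 418). Six2 was near the limit, and did not pass on both arrays with the 99th percentile limit or with double the limit. Cited1, Lhx1 and Pax8 were below the limit on both arrays. Wnt4 (216.8 and 137.8) and Ret (203.2 and 163) passed in replicate 1 alone, and Calb1 (124.5 and 407.9) in replicate 2 alone. Of 4 erythroid markers 3 were above background (sums 56868 and 49974). These were Hbb-y (55397 and 48789), Hba-x (972.9 and 491.8) and Alas2 (366.4 and 519.6), and Klf1 was below the limit on both arrays.

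The rest of the caveola coat was represented by the cavins of endothelium. Of 5 coat genes 3 were above background. Cavin1, without which caveolae do not form, gave 5994 and 8268, although only 1 of its 3 probe sets was above background. Cavin2, which bends the caveolar membrane, gave 24558 and 24937. Cavin3 gave 6074 and 2736, a log2 difference of 1.16, beyond 2-fold in the direction of Ehd3 and opposite to Cav1. The median of the 3 was -0.01, and they held no common direction.

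F-BAR and other BAR domain genes, which curve membrane as Nostrin and Pacsin2 do, were above background in 13 of 16 cases, 7 higher in replicate 1 and 6 in replicate 2, with a median log2 difference of 0.03 and none beyond 2-fold. Of the relatives of Pacsin2, Pacsin3 gave 590.5 and 704.1, and the neuronal Pacsin1 gave 163.1 and 274.2 and passed in replicate 2 only. Trip10 gave 2156 and 1479 and Fnbp1 gave 2065 and 2797, both F-BAR proteins that link membrane to actin. The largest differences above background were those of the endophilin Sh3gl1 (2075 and 1180), Trip10 and the sorting nexin Snx9 (3810 and 2663). The amphiphysin Amph (8.96 and 52.17) and Sh3gl2 (56.29 and 125.4), both of synapses, were below the limit.

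All 15 partners of EHD proteins and recycling genes were above background, 6 higher in replicate 1 and 9 in replicate 2, with a median of -0.14. Micall1, the scaffold that brings Ehd1 to recycling tubules, gave 8991 and 8667, Rab11a, a GTPase of recycling endosomes, gave 25573 and 23294, and Rab8a gave 4742 and 4521. Rab11fip2, which links Rab11 to EHD proteins, gave 506.1 and 859.7, and Ehbp1, an EHD binding protein, gave 1265 and 1945. Rab4a, a GTPase of rapid recycling, gave 3425 and 1062, a log2 difference of 1.70 and the only one of the list beyond 2-fold.

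Clathrin coats, the main other route of uptake, were represented by all 10 measured genes, 5 higher in each pool, with a median of -0.01. The light chain Clta gave 42346 and 37762, the heavy chain Cltc gave 22594 and 28695, Cltb gave 1201 and 708.3, and the adaptor subunit Ap2a1 gave 465.1 and 426.4. The adaptor subunit Ap2s1 gave 3166 and 1330, a log2 difference of 1.27. Of the genes that move or modify endothelial nitric oxide synthase all 6 measured were above background, with Nosip, a protein that binds the synthase, at 2441 and 1719, and the actin regulator Wasl, a partner of Nostrin, at 17513 and 20878. The chaperone Hsp90aa1 gave 46072 and 48134. Of the VEGF and actin genes tied to the forming of fenestrae all 8 measured were above background, with a median of -0.12. Vegfa gave 472.5 and 295.9, with 1 of its 2 probe sets above background. At double the limit 7 of the 8 genes passed, and Vegfa did not. The VEGF receptors Kdr and Flt1 gave 8939 and 12139, and 6321 and 3821. The co-receptor Nrp1 gave 21273 and 22005, and the kinase Rock1 gave 2234 and 3413.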

How the data were processed

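The pools of sorted cells, 2 arrays of 1 group, were analysed, grouped and numbered by their titles. The values are the intensities that the authors deposited, 1 per probe set of an Affymetrix mouse 3' expression array, and are not log transformed. GCOS, the software of the Affymetrix scanner, is named without a version in the submitters' processing notes. Both arrays had a mean of 1500.0 without the lowest and highest 2% of values, so they had been scaled to a shared mean. Per the labels, RNA was amplified in 2 rounds. The methods in the study differ from the labels in array type and amplification and were not used. Signal at the 3' end exceeded that at the 5' end 3.15-fold and 3.67-fold for Actb, and 19.5-fold and 22.3-fold for Gapdh, which bears on probe sets far from the 3' end.

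Genes were named from 34945 probe sets with 1 gene in the platform annotation, of which 34741 had an identifier in RefSeq (GRCm38.p6), with 0 symbols changed. Probe sets with several genes (932), with none (9160) and 64 array controls were left out of gene counts. The background limit came from 86 probe sets of 77 sensory receptor genes. Array differences were centred on the median over probe sets above background (offset -0.01 in log2). The calculation was tested on simulated data. From each pathway list the genes named were the first 4 measured and up to 3 whose call differed from the majority of their list. The 3 with the largest difference were named too. From the marker lists only some of the genes that this rule picks were named, and from some lists none. A few others were named after their values were seen. The members, the 8 pathway lists and the 9 marker lists were chosen with earlier results of these data known. The study lists Cav1, Cav2 and Ehd4 among genes higher in embryonic endothelium, which may rest on these samples. Protein sequences were not used here. Python 3.11.15, numpy 2.4.6, pandas 2.3.3 and matplotlib 3.10.9 were used. The alternatives were other limits, each array alone, quantile normalization, other choices of probe set, no centring, a pseudocount of 100 and no filter.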

Additional observations from a re-analysis of the deposited data

How the results depend on the processing

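All 9 members measured were above background at a limit of 100, on either array alone (9 genes each) and after quantile normalization. Those runs could not remove a member. The limit of 100 is lower, 1 array asks less than both, and quantile normalization keeps the ranks that set the calls. All 9 also passed with the median of probe sets. At the stricter limits, the 99th percentile and double the limit, Nostrin was lost, which left 8. Probe sets without a suffix measured 7 members, all above background, since Cav1 and Ehd4 have only suffixed probe sets. The count of member probe sets above background ran from 16 to 23, and from 21 to 22 on either array alone. The number of members beyond 2-fold was 0 with quantile normalization, the median of probe sets or the pseudocount of 100, and 1 otherwise, Ehd3, whose log2 difference ran from 0.99 to 1.03. The signs of Plvap (0.72 to 0.78), Cav1, Ehd3, Ehd4 and Nostrin held in every alternative run that gave them a value. Ehd1 kept its sign too, but ran from 0.04 to 0.47. Plvap, Cav1, Ehd4 and Nostrin have 1 probe set each, so the choice of probe set could not change their signs. The run without a filter could not change the difference of any member, since all 9 had passed it. With the median of probe sets Cav2 was 0.45, Dnm2 -0.44 and Ehd2 -0.04, each with its sign changed, and Ehd1 was 0.06. In that run the caveola coat median was 0.55 and that of podocyte markers 0.39, and 2 mural and 1 podocyte markers were above background. Without suffixed probe sets Dnm2 was -0.82, the caveola coat median 0.58 and the erythroid median 1.00, with 1 erythroid marker above background. At a limit of 100, 7 nephron and ureteric bud and 2 striated muscle markers were above background, and on either array alone 4 to 5 and 0 to 2. With the 99th percentile limit and with double the limit these counts were 2 and 0. In all, 295 of the values under alternatives stayed within 1.5 times the count or 1 SD (0.508) of the main value and 17 did not, and the causes were not tested. The 295 include counts from the runs that could not remove a member. No paired analysis was possible because there is only 1 group.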

Other observations

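Receptors and carriers of endothelial transport were above background in 8 of 9 cases. Gpihbp1, which brings lipoprotein lipase to the capillary lumen, gave 3269 and 2280. The neonatal Fc receptor Fcgrt gave 3616 and 5705, the HDL receptor Scarb1 gave 6580 and 8164, the fatty acid receptor Cd36 gave 5767 and 9183, and the water channel Aqp1 gave 803.7 and 1275. Of the 8, 6 were higher in replicate 2 and 2 in replicate 1, with a median log2 difference of -0.44 and none beyond 2-fold. The renal stroma markers above background were also higher in replicate 2 (10 of 10), as were those of mural cells (4 of 4). Of the macrophage markers 6 were higher in replicate 2 and 2 in replicate 1. The part of any of these cells in the values of the transport genes was not tested. Mfsd2a, a lipid transporter that holds back caveolar transcytosis in the endothelium of the brain, was below the limit on both arrays (134.5 and 43.4).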
